A study of Mus musculus with 20 samples.

Results

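The DEAD and DEAH box helicases of mouse male meiosis are described here, with the testis helicase Ddx25 set beside the helicases that most cells use. A gene was a member if its symbol was Ddx or Dhx followed by a number and at most 1 letter. The germ cell helicase of the piRNA pathway, Ddx4, has such a symbol but was left out by name. Of 18193 genes to which the array annotation gives a probe set of their own, 50 were members, 34 named Ddx and 16 named Dhx. The members had 112 probe sets, and the probe set with the highest mean over the arrays stood for each gene. Of the 50, 47 reached a log2 signal of at least 5 in at least 2 arrays and could be tested, among 11952 genes. The X-linked helicase Ddx3x is among them. Its Y-linked copy Ddx3y and the export helicase Ddx19a were not analysed here.

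DEAD and DEAH box proteins use ATP to bind, unwind or remodel RNA and the proteins on it. They are named after the amino acids of a conserved motif. Most serve steps that every cell needs, such as splicing, ribosome assembly, export and translation of mRNA. Ddx25, known as gonadotropin-regulated testicular helicase, is made in the testis, and male mice without it are sterile with spermatids that do not complete their development. It carries mRNAs out of the nucleus and belongs to the same subfamily as Ddx19b. Transcripts made in pachytene spermatocytes and round spermatids are often stored and translated later, so proteins that export, store and release mRNA have been studied closely in these cells.

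All animals were male F1 hybrids, C57BL/6 x DBA/2J in the labels. The labels give an age of 10 to 16 weeks, the study's methods a narrower span. Testis cells were sorted on fluorescence of the DNA dye Hoechst into 8 fractions and hybridized to 20 Affymetrix arrays, each with RNA pooled from several sorts. The fractions were spermatogonia (Sp, 4 arrays), pre-leptotene (pL, 3), leptotene-zygotene (LZ, 3), early-pachytene (eP, 1), mid-pachytene (mP, 2), late-pachytene (lP, 1) and diplotene (D, 2) spermatocytes, and round spermatids (RS, 4). No altered gene and no treatment is named for any group. Levels are log2 of the deposited GC-RMA signal. A level of 1 probe set is not compared with that of another. Since each array holds the RNA of a sorted population, fewer cells of a type and less RNA per cell cannot be told apart, and the p-values measure the spread between pools. Arrays that carry the same project number in the study's supplement are called an array project here.

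The fractions carried markers of other cells or stages, and some of these patterns touch the results. Summed over the 8 macrophage and leukocyte markers, the log2 signal was 10.4 to 12.6 in spermatogonia, 6.33 to 11.3 in pre-leptotene cells and at most 7.63 in the later fractions. All 8 had mean levels under 5 from early-pachytene on. Summed over the 6 round spermatid markers, it was 15.4 to 17.2 in spermatogonia against 16.4 to 16.8 in round spermatids. In the fractions between them this sum was 13.7 to 15.7. The protamines Prm1 and Prm2 and the transition proteins Tnp1 and Tnp2 carry that sum and were not called between the 2 fractions (-0.57 to 0.15), while the acrosomal Acrv1 (7.59 in Sp, 13.34 in RS) and Spaca1 (7.29 and 12.79) rose by 5.75 and 5.50. The 7 Sertoli cell markers summed to 9.0 to 12.8, with Clu at means of 9.74 to 12.52 and Amhr2 at 7.34 to 10.06. The means of Sox9, Gata4 and Rhox5 were under 5 in every fraction, though Rhox5 reached 5 in at least 2 arrays. The 4 measured Leydig cell markers summed to 5.32 to 8.40. Cyp17a1 had means of 2.97 to 7.51, the highest in LZ cells. The means of Cyp11a1 and Hsd3b1 were under 5 in every fraction, though Hsd3b1 reached 5 in at least 2 arrays. The 6 spermatogonia markers did not separate the early fractions. They summed to 14.3 to 14.9 in Sp, 14.6 to 14.9 in pL and LZ cells and 13.1 to 13.6 in mP. In RS the sum was 6.90 to 9.85. Stra8 had means of 11.42 in Sp, 11.61 in pL and 12.31 in LZ cells, while Meiob had 4.00, 5.91 and 8.04. The 4 measured pachytene markers summed to 11.4 to 13.8 in Sp and 9.65 to 11.3 in pL cells. The part of other cells or stages in the results was not tested.

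The upstream sequences of 3 helicases that rose at mid-pachytene are shown first, because the probe sets used for Ddx25, Ddx19b and Dhx34 share the direction of change and a reader can see what their promoters do and do not have in common. They are the 250 bases before the RefSeq start in build GRCm38.p6, 5′ to 3′ on the minus strand. Capitals mark CCAAT, written ATTGG where it lies on the other strand. The positions are chr9:35558471-35558720 for Ddx25, chr8:111031752-111032001 and chr8:111027771-111028020 for the 2 starts of Ddx19b, and chr7:16222033-16222282 for the first start of Dhx34.
Ddx25: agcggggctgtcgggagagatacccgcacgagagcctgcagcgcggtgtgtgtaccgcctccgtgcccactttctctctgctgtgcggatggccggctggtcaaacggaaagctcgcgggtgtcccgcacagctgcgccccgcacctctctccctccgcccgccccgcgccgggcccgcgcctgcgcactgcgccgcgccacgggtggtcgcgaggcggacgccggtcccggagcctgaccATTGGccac
Ddx19b, first start: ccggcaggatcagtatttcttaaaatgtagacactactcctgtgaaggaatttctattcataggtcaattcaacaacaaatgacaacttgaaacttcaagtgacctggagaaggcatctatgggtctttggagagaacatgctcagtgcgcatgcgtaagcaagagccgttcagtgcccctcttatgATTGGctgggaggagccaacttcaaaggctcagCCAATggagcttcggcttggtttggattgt
Ddx19b, second start: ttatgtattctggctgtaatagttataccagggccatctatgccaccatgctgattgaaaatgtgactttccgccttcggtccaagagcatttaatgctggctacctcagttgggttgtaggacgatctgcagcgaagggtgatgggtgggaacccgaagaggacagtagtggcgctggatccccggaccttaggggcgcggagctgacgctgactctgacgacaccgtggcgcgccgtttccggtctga
Dhx34: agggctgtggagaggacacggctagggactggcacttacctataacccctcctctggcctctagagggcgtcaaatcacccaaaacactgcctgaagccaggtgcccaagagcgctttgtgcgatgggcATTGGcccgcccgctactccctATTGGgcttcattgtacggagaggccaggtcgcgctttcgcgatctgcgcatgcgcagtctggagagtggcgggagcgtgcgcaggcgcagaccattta
The stretch of Ddx25 holds 1 match in its last bases, 73.6% of its letters are G or C, and no other of the 4 stretches is as rich. The first start of Ddx19b has 2 matches on opposite strands and its second has 0, while Dhx34 has 2 on the same strand. RefSeq windows of 250 bases before to 50 after a start were given for 44 of the 50 members. CCAAT on either strand was in a window of 22 of these 44 members and in 37.4% of all 32851 windows. The cyclic AMP response element TGACGTCA, read by factors of the CREB family, was in 4 members (Ddx28, Ddx49, Ddx51 and Dhx36) and 1.79% of all windows. It was not in the windows of Ddx25, Ddx19b or Dhx34. TATAAA was in 6 members and 13.6% of windows. A gene with several starts has several windows and so more chances of a match.

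Across the 8 fractions the ranges of most helicases were narrow beside those of all genes. The helicases also had higher levels, with a median mean of 9.50 against 7.82, and ranges were not compared at equal level. The range between a gene's highest and lowest fraction mean had a median of 1.63 log2 units over the 47 tested members, against 2.81 over all genes tested. It was under 2 for 30 members, and for 31.6% of all genes. It reached 4 for 5 members, the viral RNA sensor Dhx58 (6.24), Ddx3x (4.60), Ddx19b (4.56) and the ribosome assembly helicases Ddx55 (4.17) and Ddx10 (4.14), and for 27.8% of all genes. Ddx25, with a range of 3.29, stood at percentile 60.0 of all genes. The smallest ranges were those of the ribosome assembly factor Ddx56 (0.58) and of Dhx40 (0.63).

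The highest mean lay in spermatogonia for 3 of the 47 tested members (13.9% of all genes), in pre-leptotene cells for 11 (19.6%), LZ cells for 10 (12.1%), early-pachytene for 0 (2.19%), mid-pachytene for 1 (3.05%), late-pachytene for 11 (15.5%), diplotene for 4 (8.41%) and round spermatids for 7 (25.3%). The lowest mean was in round spermatids for 20 of the 47, and for 29.0% of all genes. The 7 highest in round spermatids were Ddx25, Ddx20, Ddx49, Ddx5, Dhx8, Dhx38 and Dhx40. A single array stands behind late-pachytene, and these places are descriptions.

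**Figure D1:**
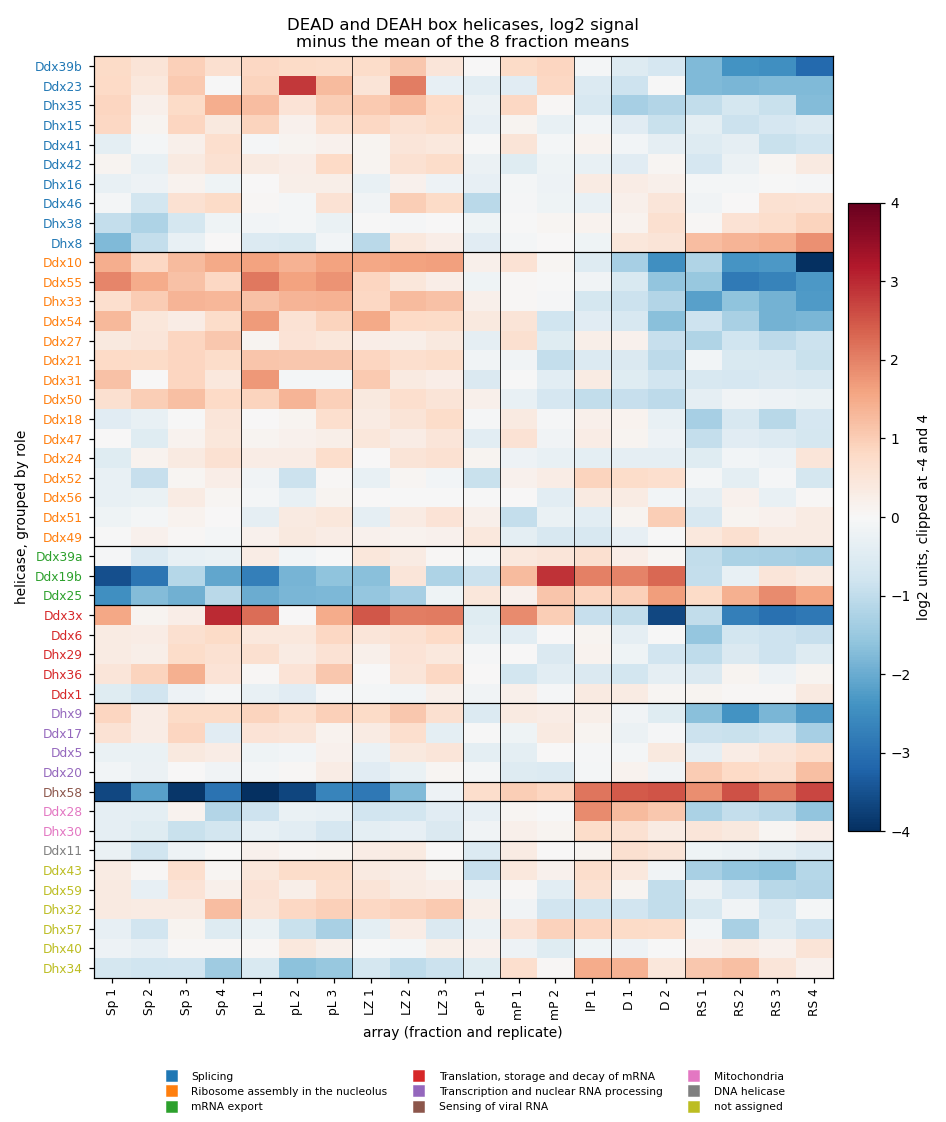
Log2 signal of the 47 tested helicases (rows, grouped and colored by role) on the 20 arrays (columns, by fraction and replicate), less the mean of each gene's 8 fraction means; red is above and blue below that mean, in log2 units. Most rows are pale, while Dhx58, Ddx25 and Ddx19b are mostly blue before pachytene and red at diplotene, and Ddx10, Ddx55, Dhx33 and Ddx3x are mostly red early and blue in round spermatids.

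By the probe sets used, Ddx25 was the export helicase whose signal was lower before pachytene than after and stayed high to the end. Its levels were 9.22, 9.94, 9.75 and 10.60 in the 4 Sp arrays, 9.68, 9.84 and 9.87 in pL cells, and 10.11, 10.34 and 11.51 in LZ cells. They were 12.11 on the single eP array, 11.84 and 12.78 in mP, 12.54 on the single lP array, 12.63 and 13.33 in D, and 12.44, 13.11, 13.57 and 13.25 in round spermatids. Every array from early-pachytene on was above every earlier array. The fraction means, in rising order, were 9.80 ± 0.10 (SD, n = 3) in pL, 9.88 ± 0.57 (n = 4) in Sp, 10.65 ± 0.75 (n = 3) in LZ, 12.31 ± 0.66 (n = 2) in mP, 12.98 ± 0.50 (n = 2) in D and 13.09 ± 0.48 (n = 4) in RS, with eP and lP as above. Of the fractions compared in turn, without the single eP and lP arrays, only mid-pachytene and LZ cells differed beyond their spread. Ddx25 rose there by 1.66 (standard error 0.47, adjusted p = 0.0164 from limma), a 3.17-fold difference. From spermatogonia to pL cells the difference was -0.08 (adjusted p = 1), from pL to LZ cells 0.85 (0.47), from mid-pachytene to diplotene 0.66 (0.427) and from diplotene to round spermatids 0.11 (0.921). Between round spermatids and spermatogonia Ddx25 rose by 3.21 (standard error 0.37, adjusted p = 8.07e-07), or 9.28-fold. Within the 2 array projects that held both fractions the difference was 3.17 and 2.65. The mid-pachytene call was lost without LZ replicate 1 (1.39, adjusted p = 0.0645), LZ replicate 2 (1.51, 0.0554) or mP replicate 2 (1.19, 0.222), and within the array project that held both fractions the difference was 2.45.

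Ddx19b, which releases mRNA from the nuclear pore, rose like Ddx25 between LZ and mP cells and then fell, by the probe set of highest mean. On the single eP array between them it was at 7.16, while Ddx25 was already at 12.11. The other Ddx19b probe set with a mean above 5 had another course. By the first, the levels were 4.48, 5.08, 6.87 and 5.93 in spermatogonia, 5.28, 6.14 and 6.38 in pL cells, 6.32, 8.48 and 6.78 in LZ cells and 7.16 in eP cells. They were 9.28 and 10.91 in mP, 10.03 in lP, 9.99 and 10.31 in D, and 7.04, 7.70, 8.48 and 8.37 in round spermatids. The mP, lP and D arrays were thus above all others, and every RS array was below them and above every Sp array. Ddx19b rose 7.46-fold from LZ to mP cells (a log2 difference of 2.90 with a standard error of 0.73, adjusted p = 0.00831) and fell by 2.26 from diplotene to round spermatids (standard error 0.69, adjusted p = 0.0251). Round spermatids remained 4.95-fold above spermatogonia (2.31, adjusted p = 0.00158). The first call was lost without mP replicate 2 (adjusted p = 0.157), and the fall was lost without D replicate 1, D replicate 2 or RS replicate 1 (adjusted p up to 0.129). The other probe set had 6.54, 6.59 and 6.82 in LZ cells, 7.03 and 6.59 in mP, 8.54 in lP, 8.64 and 8.26 in D, and 8.28, 8.48, 7.97 and 7.94 in round spermatids. It was not called into mid-pachytene (0.16, adjusted p = 0.858) or from diplotene to round spermatids (-0.28, adjusted p = 0.791). Its lP, D and RS arrays were above all earlier ones, so the 2 probe sets differ in the step of the rise and in the level in round spermatids.

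The test of Ddx25 against Ddx19b asked whether their ratio within an array differed between the first and the last fraction. The log2 ratio was 4.74, 4.86, 2.88 and 4.67 in spermatogonia and 5.40, 5.41, 5.10 and 4.88 in round spermatids. All 4 RS values were above all 4 Sp values, and the means differed by 0.91 (exact permutation test, two-sided, p = 0.0286, the smallest that 4 arrays against 4 allow). The comparison was the only one run of 3 that had been planned. After another quantile normalization the difference was 0.56 (exact p = 0.343), without spermatogonia replicate 3 it was 0.44, and within the array projects it was 0.55 and 0.21. With the other Ddx19b probe set, an alternative chosen after seeing the data, the difference was -0.20 (exact p = 0.686), so the direction depended on the probe set. The other export helicase, Ddx39a, which joins mRNA to the export complex, had another course. It stayed at 12.3 to 13.4 up to diplotene, was 11.4 to 11.8 in round spermatids, and fell by 1.40 from diplotene to round spermatids (standard error 0.23, adjusted p = 0.00048).

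**Figure D2:**
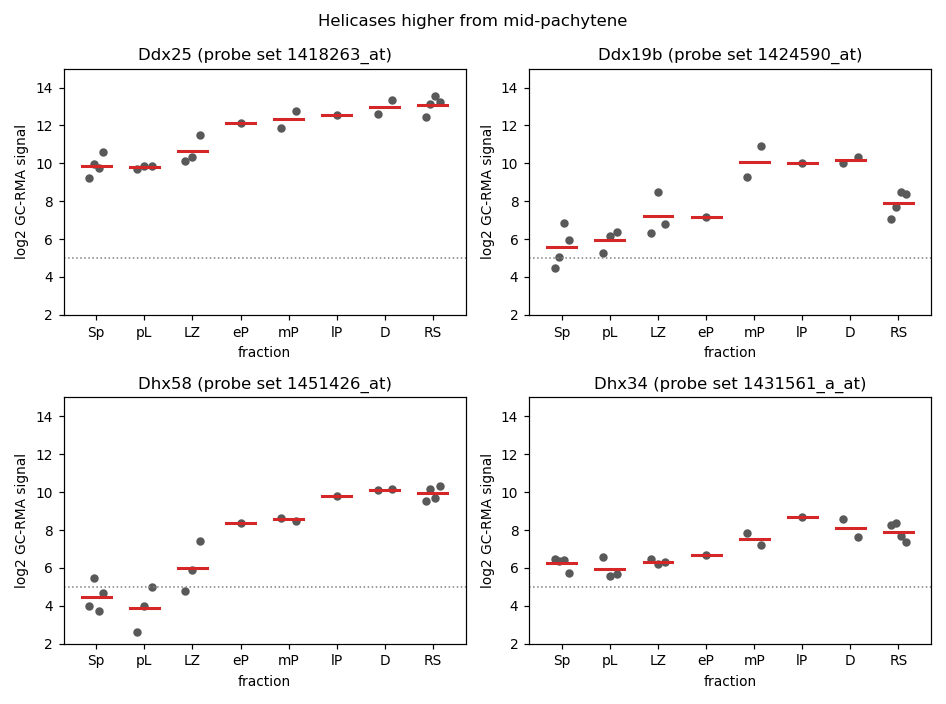
Log2 GC-RMA signal (vertical axis) of Ddx25, Ddx19b, Dhx58 and Dhx34 on each array (gray points) in the 8 fractions (Sp spermatogonia, pL pre-leptotene, LZ leptotene-zygotene, eP, mP and lP early-, mid- and late-pachytene, D diplotene, RS round spermatids), with red bars for fraction means and a dotted line at 5. Ddx25 and Dhx58 keep their height in round spermatids, where Ddx19b, by the probe set shown, lies between 7.04 and 8.48, below its mid-pachytene and diplotene arrays.

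The genes whose levels were most like those of Ddx25 over the 20 arrays were Iqcg (Pearson r = 0.99), Suclg1 (0.99), Haus1 (0.99), Mpi (0.99) and Gkap1 (0.99), of 11951 genes ranked. Among the helicases Dhx58 came first (r = 0.96, rank 322), then Dhx38 (0.80), Dhx30 (0.80), Dhx34 (0.78) and Dhx8 (0.78). Ddx19b followed at 0.77. Of the 46 other helicases 18 had a positive r and 28 a negative one, where 46.1% of all genes had a positive one. The median r was -0.47 for these helicases and -0.19 over all genes. The lowest were Ddx21 (-0.95) and Ddx55 (-0.92), both of ribosome assembly. The arrays share fractions, so these values describe the order of stages.

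**Figure D3:**
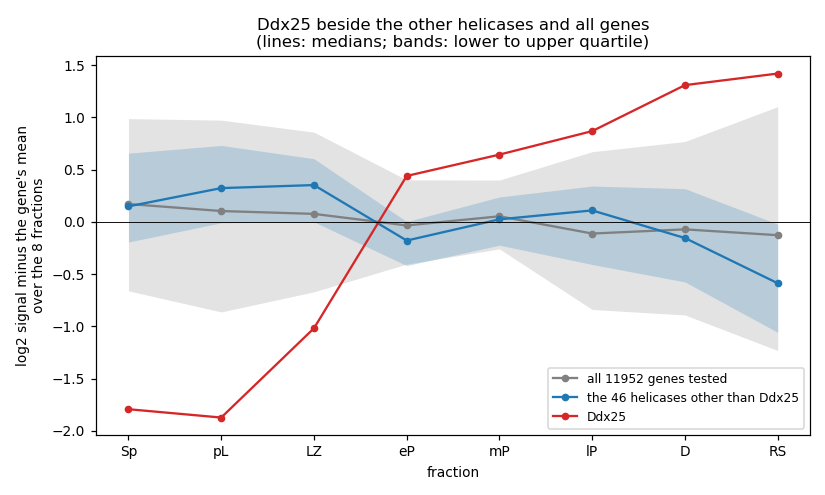
Log2 signal less each gene's mean over the 8 fractions (vertical axis) for Ddx25 (red), the median of the 46 other tested helicases (blue) and the median of all 11952 genes tested (gray), with bands from lower to upper quartile. Ddx25 goes from -1.79 in spermatogonia to 1.42 in round spermatids, while the median of the other helicases goes from 0.15 to -0.59.

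Before pachytene no helicase was called, between fractions that the spermatogonia markers given above did not separate. From spermatogonia to pre-leptotene cells limma called 0 of 47, with 1 at an unadjusted p under 0.05, where 0.0502% of all genes rose and 0.636% fell (0.686% in all). From pL to LZ cells it again called 0, with 3 unadjusted, where 2.51% of all genes rose and 0.0837% fell (2.59% in all). With the array project as a block the second count was 2. The median change of the members was 0.16 and 0.04, against -0.01 and 0.04 over all genes.

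From leptotene-zygotene to mid-pachytene 4 helicases rose and 7 fell, where 16.2% of all genes rose and 17.1% fell. Ddx19b, Dhx58, Ddx25 and Dhx34 were the 4 that rose. Dhx58, also called LGP2, is a regulator of the receptors for viral RNA. Its levels were 4.01, 5.48, 3.75 and 4.69 in spermatogonia, 2.65, 3.98 and 5.02 in pL cells, 4.77, 5.87 and 7.43 in LZ cells and 8.36 in eP cells. They then were 8.64 and 8.50 in mP, 9.79 in lP, 10.10 and 10.15 in D, and 9.52, 10.18, 9.72 and 10.33 in round spermatids. Every array from early-pachytene on was above every earlier one, and the rise was 2.55 (standard error 0.71, adjusted p = 0.0143). The other probe sets of Dhx58 did not show it, at 2.34 to 3.31 and at 1.74 to 1.88 over all arrays, too low to be tested. The other viral RNA sensors, Ddx58 and Ddx60, had levels under 4 on every array by the probe sets used. The second probe set of Ddx60 reached 4.51 on D replicate 2 and 5.11 on RS replicate 2. The 4 interferon response genes that were measured, Ifit1, Ifit3, Oas1a and Irf7, had means under 5 in every fraction. Dhx34, a factor of nonsense-mediated mRNA decay, had 6.48, 6.19 and 6.33 in LZ cells and 7.85 and 7.23 in mP cells, a rise of 1.21 (standard error 0.41, adjusted p = 0.0356). Its level was 8.68 on the lP array.

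The 7 that fell at this step, where 17.1% of all genes did, included 4 of the 15 tested ribosome assembly helicases (Ddx21, Ddx49, Ddx50 and Dhx33). They also included 2 of 5 that act in translation, storage and decay of mRNA (Ddx6 and Dhx36). Ddx21 works in rRNA transcription and processing. Its levels were 10.30, 10.13 and 10.19 in LZ cells and 9.31 and 8.49 in mP cells, and it fell by 1.31 (standard error 0.29, adjusted p = 0.00373). Dhx33, also nucleolar, fell by 1.09 (adjusted p = 0.00959), from 8.61, 9.04 and 8.95 to 7.82 and 7.73. Dhx36, which resolves G-quadruplexes, fell by 1.03 (adjusted p = 0.0482), from 9.38, 9.85 and 10.19 to 8.61 and 8.93. Dhx32 had the largest fall, 1.38 (standard error 0.32, adjusted p = 0.0053), from 10.14, 10.22 and 10.36 to 9.16 and 8.56. None of the 10 splicing helicases was called, where 33.3% of all genes were. The 11 calls moved the same way within the array project that held both fractions. That was fixed in advance, since the arrays of none of the 11 overlapped between the fractions. Of 13 alternatives the call of Dhx34 was kept in 7, of Dhx36 in 5 and of Ddx6 in 4. Limma called 0 without mP replicate 2 (10 at an unadjusted p under 0.05), 6 without LZ replicate 1 or 2, and 7 without LZ replicate 3 or mP replicate 1, with the remaining mid-pachytene array assumed to vary like the others where 1 was left.

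From mid-pachytene to diplotene 1 helicase rose and 5 fell, where 7.11% and 15.3% of all genes did. Ddx3x, the X-linked helicase of translation initiation, had the largest fall. Its levels were 10.22, 8.79, 8.93 and 11.65 in spermatogonia, 10.90, 8.70 and 10.15 in pL cells, 11.17, 10.71 and 10.76 in LZ cells and 8.18 in eP cells. They were 10.57 and 9.67 in mP, 7.75 in lP, 7.70 and 5.03 in D, and 7.69, 5.95, 5.70 and 5.81 in round spermatids. The D and RS arrays were below all arrays before late-pachytene, while the single eP array was lower than both mP arrays. Ddx3x fell by 3.76 (standard error 0.99, adjusted p = 0.0141), and by 2.87 and 4.64 within the array projects. The other falls were those of Ddx10, Dhx35, Ddx39b and Dhx33. Ddx10, needed for the small ribosomal subunit, had levels of 11.14 and 10.63 in mP and 9.23 and 8.09 in D, and it fell by 2.23 (standard error 0.66, adjusted p = 0.0259).

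Ddx39b, which takes part in both splicing and export, had 12.57 and 12.65 in mP and 11.30 and 11.14 in D, a fall of 1.40 (standard error 0.35, adjusted p = 0.0109). Dhx35, of the spliceosome, had 9.35 and 8.57 in mP and 7.20 and 7.35 in D, a fall of 1.68 (adjusted p = 0.0108). Ddx28, which helps to assemble mitochondrial ribosomes, was the 1 that rose, from 6.61 and 6.53 to 7.81 and 7.60 (1.14, adjusted p = 0.04). All 6 moved the same way in both array projects, which was fixed in advance since the arrays of none of them overlapped. With the project as a block 11 helicases were called, the 6 among them. Limma called 0 without mP replicate 1 (6 at an unadjusted p under 0.05), 0 without D replicate 2 (5 unadjusted), 3 without mP replicate 2, and 0 in a fit of the 4 arrays alone (7 unadjusted).

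From diplotene to round spermatids 3 helicases rose and 12 fell, where 13.5% and 14.2% of all genes did. Ddx28 reversed, from 7.81 and 7.60 in D to 5.27, 5.60, 5.46 and 4.97 in RS, a fall of 2.39 (standard error 0.32, adjusted p = 0.0001). It had thus been above its other fractions only on the lP and D arrays. Ddx39b fell by a further 1.85 (standard error 0.30, adjusted p = 0.000473), to 10.04, 9.40, 9.34 and 8.70. Dhx9, or RNA helicase A, which works in transcription, fell by 1.71 (standard error 0.27, adjusted p = 0.000308), from 11.50 and 11.16 to 9.98, 9.27, 9.84 and 9.39. Ddx43, a helicase known from testis and tumors, fell by 1.56 (adjusted p = 0.000552). The others that fell were Ddx6, Ddx11, Ddx19b, Ddx39a, Ddx52, Ddx55, Dhx33 and Dhx57, and for Ddx55 the arrays overlapped.

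The 3 that rose in round spermatids were Ddx20, Ddx50 and Ddx49. Ddx20, or Gemin3, is a subunit of the SMN complex that assembles spliceosomal RNPs. Its levels were 11.29 and 11.03 in D and 12.16, 11.95, 11.81 and 12.35 in RS, above every earlier array, and it rose by 0.91 (standard error 0.24, adjusted p = 0.0104). Ddx50, a nucleolar helicase close to Ddx21, rose by 0.75 (adjusted p = 0.0288), from 9.91 and 9.78 to 10.49, 10.68, 10.62 and 10.58, and stayed below its Sp arrays. Ddx49 rose by 0.60 (adjusted p = 0.0473), from 9.43 and 9.74 to 10.17, 10.39, 10.10 and 10.09. The last call was lost after median centring and after another quantile normalization, that of Ddx50 after median centring. All 15 calls had the same direction in both array projects. For 14 of them the arrays did not overlap, so this agreement was fixed in advance. The count was 6 without D replicate 1 and 8 without D replicate 2.

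**Figure D4:**
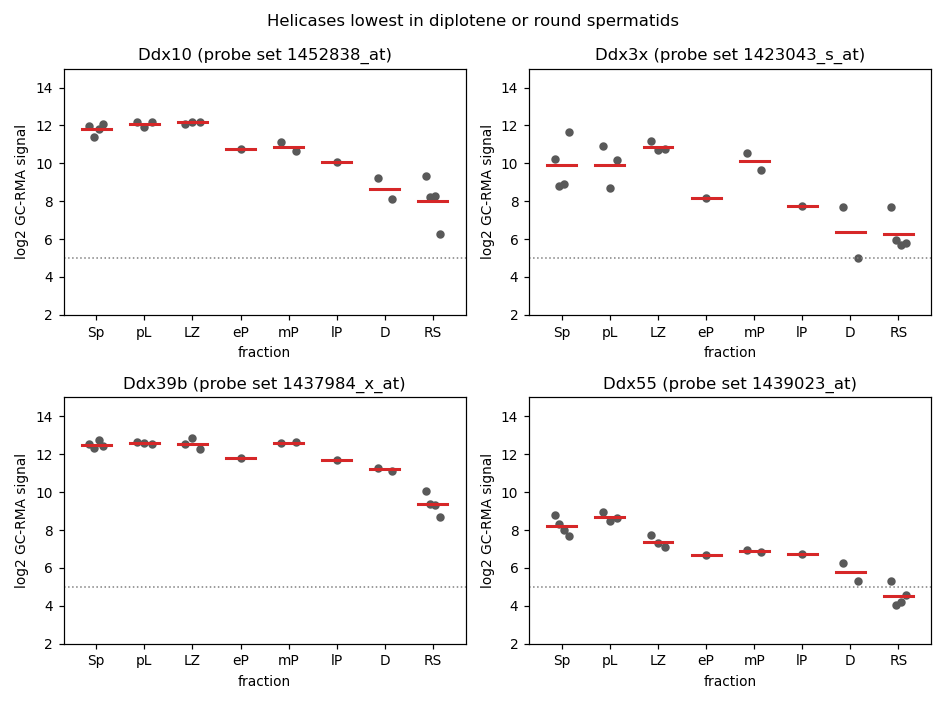
Log2 GC-RMA signal (vertical axis) of Ddx10, Ddx3x, Ddx39b and Ddx55 on each array (gray points) in the 8 fractions, with red bars for fraction means and a dotted line at 5. Ddx39b holds near 12.5 up to mid-pachytene, apart from the eP array at 11.81, and then falls to a mean of 9.37 in round spermatids, Ddx55 declines from pre-leptotene on, and the Ddx3x arrays of spermatogonia spread from 8.79 to 11.65.

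Between spermatogonia and round spermatids 10 helicases rose and 26 fell, where 35.9% of all genes rose and 42.4% fell, 78.3% in all. The median change was -0.77 for the 47 and -0.24 for all genes. Ribosome assembly was the largest role, and of its 15 tested members 10 fell and 1, Ddx49, rose. Ddx10 went from 11.99, 11.39, 11.81 and 12.05 to 9.33, 8.20, 8.25 and 6.26 and fell by 3.80 (standard error 0.46, adjusted p = 1.69e-06). Ddx55, of the large ribosomal subunit, went from 8.80, 8.34, 8.02 and 7.71 to 5.33, 4.03, 4.19 and 4.55 and fell by 3.69 (standard error 0.32, adjusted p = 3.57e-08), or by 3.14 with values under 5 raised to 5. Dhx33 (-3.09), Ddx54 (-2.16), Ddx27 (-1.68), Ddx21 (-1.34), Ddx31 (-1.24), Ddx50 (-1.15), Ddx18 (-0.88) and Ddx47 (-0.69) also fell. The calls of Ddx31 and Ddx47 were lost after another quantile normalization, which moved the median of all probe sets by 0.18. Ddx24, Ddx51, Ddx52 and Ddx56 had changes of -0.24 to 0.01 and were not called, though the other probe set of Ddx52 fell (-0.85). Ddx49 differed by 0.40 (adjusted p = 0.0476), a call that 6 of 16 alternatives kept.

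Of the 10 splicing helicases, Ddx23, Ddx39b, Ddx41, Dhx15 and Dhx35 fell and Dhx8 and Dhx38 rose. Of all genes 42.4% fell and 35.9% rose, so these counts do not set the splicing helicases apart. Ddx39b fell by 3.15 (standard error 0.25, adjusted p = 1.44e-08), from 12.56, 12.31, 12.75 and 12.45 in spermatogonia to a mean of 9.37 ± 0.55 (SD, n = 4). Dhx8, which releases the spliced mRNA from the spliceosome, had 6.37, 7.17, 7.82 and 8.16 in spermatogonia and 9.35, 9.50, 9.57 and 9.96 in round spermatids. It rose 4.64-fold (2.22, standard error 0.37, adjusted p = 5.26e-05), and its RS arrays were above all other arrays. Dhx38, which acts at the second step of splicing, rose by 1.31 (adjusted p = 0.000143). The fall of Ddx23, 2.34, is between means of 4.76 and 2.42, and with values under 5 raised to 5 it was 0.06 and not called. Ddx42, Ddx46 and Dhx16 were not called.

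Of the 5 helicases of translation, storage and decay 4 fell, where 42.4% of all genes did. Ddx3x fell by 3.61 (standard error 0.70, adjusted p = 0.000211), and by 2.85 and 5.85 within the array projects. Ddx6, of cytoplasmic mRNA storage granules, fell by 1.51, Dhx29, of ribosome scanning, by 1.22 and Dhx36 by 0.97. Ddx1 rose by 0.53 (adjusted p = 0.0289), a call that 10 of 16 alternatives kept. In transcription and nuclear RNA processing Dhx9 (-2.70) and Ddx17 (-1.28) fell, Ddx20 rose (1.02) and Ddx5 was not called (0.23). In mitochondria Dhx30 rose (0.92) and Ddx28 fell (-0.77). The DNA helicase Ddx11 was not called by the probe set used (-0.02), but its other probe set fell (-1.04). By the only probe set of it that could be tested, Dhx58 had the largest change of all members, 5.45 (standard error 0.55, adjusted p = 1.84e-07). With values under 5 raised to 5 it was 4.82. Dhx34 rose by 1.66, and Ddx43 (-1.69), Ddx59 (-0.99) and Dhx32 (-0.93) fell.

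Genes of the same helicase superfamily with other symbols were counted from a list. Of its 11 tested genes 9 fell between spermatogonia and round spermatids and 1 rose, where 42.4% of all genes fell and 35.9% rose. Among the 9 were the translation initiation helicases Eif4a1 and Eif4a2, the spliceosome helicase Snrnp200 and Dicer1. The 1 that rose was the exosome cofactor Skiv2l. From LZ to mP cells 2 of the 11 fell (Eif4a1 and Hells), where 17.1% of all genes fell. From mid-pachytene to diplotene 3 fell (Eif4a1, Dicer1 and Hells), against 15.3% of all genes. From diplotene to round spermatids 2 fell (Eif4a2 and Tdrd9), against 14.2%. None rose in these steps, where 16.2%, 7.11% and 13.5% of all genes rose.

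**Figure D5:**
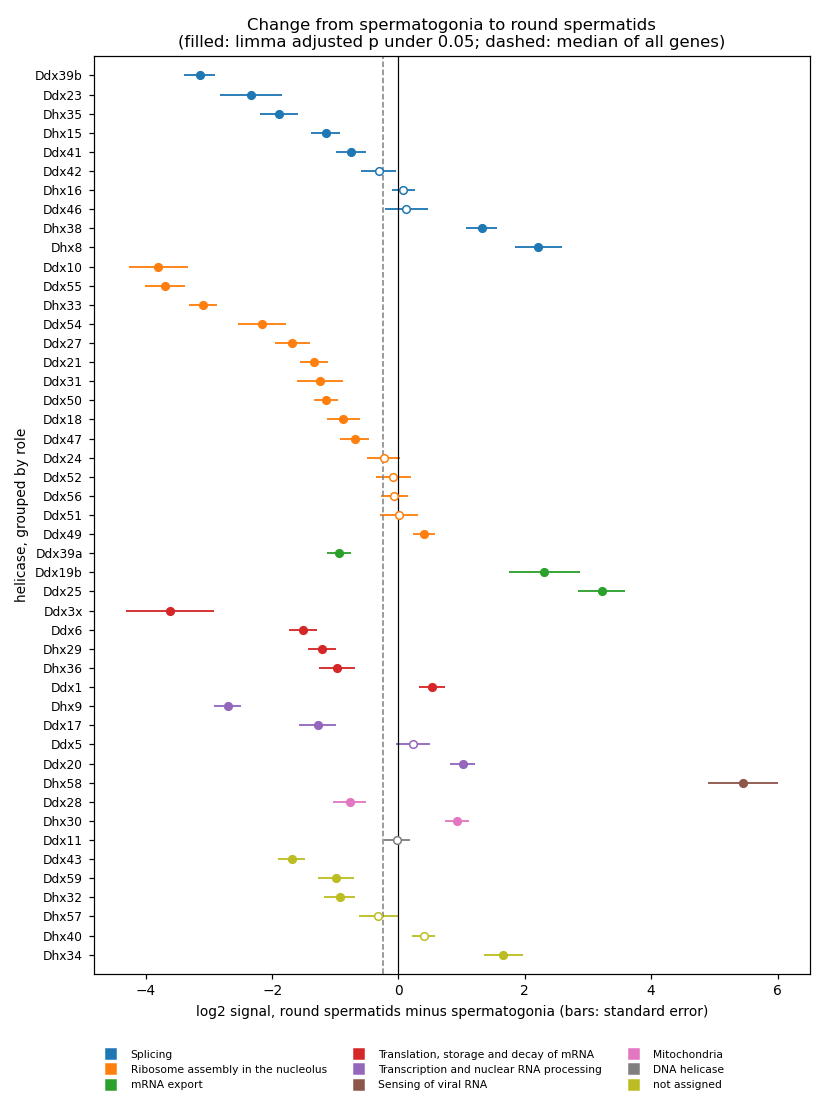
Log2 signal in round spermatids minus spermatogonia (horizontal axis) for the 47 tested helicases, grouped and colored by role, with bars for the standard error and filled points for a limma adjusted p under 0.05; the dashed line is the median of all genes, -0.24. Ribosome assembly helicases lie from -3.80 to 0.40, and Dhx58, Ddx25, Ddx19b and Dhx8 lie farthest to the right.

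Spermatogonia held the leukocyte, protamine and transition protein signals given above. The comparison was therefore repeated with pre-leptotene cells in their place, a choice made after seeing the data. Pre-leptotene cells held such signals too, at lower means, so the change of fraction does not remove them. Mean levels there were 13.88 for Prm1, 13.05 for Prm2, 11.73 for Tnp1 and 11.22 for Tnp2. The leukocyte markers summed to 11.30 on pre-leptotene replicate 1. With pre-leptotene cells 8 helicases rose and 25 fell (37% and 42.1% of all genes), 33 of them among the 36. Ddx25 rose by 3.29 (limma adjusted p = 1.46e-06). In the comparison with spermatogonia, leaving out any 1 of the 8 arrays gave 34 or 35. Of the 36 calls, 35 had the same direction in both array projects, Ddx47 being the exception with 0.04 and -1.16. For 32 of the 36 the arrays did not overlap, so this agreement was fixed in advance.

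Between spermatogonia and round spermatids, further probe sets of the same gene mostly had the same sign. Of the 36 called helicases 20 had further tested probe sets, 30 in all. Of these, 27 had the sign of the one used, 24 were called the same way and 1 the opposite way. The exception was a probe set of Dhx30, at -2.53 beside 0.92. Ddx25 has 1 probe set, while for Ddx19b another probe set rose by 3.41 and the last, at a mean level of 3.5, had 0.13. The splicing helicase Ddx46 was not called by the probe set used (0.13), but 2 other probe sets rose by 2.61 and 2.36, and Ddx11 and Ddx52 likewise had another probe set that was called. At the single steps fewer of the further probe sets were called. Into mid-pachytene 10 of 11 had the same sign and 2 were called the same way (Ddx21 and Dhx33). Into diplotene it was 6 and 4 of 6, and into round spermatids 15 and 7 of 16, with 0 called the opposite way at these 3 steps. The exceptions in sign were Ddx49 into mid-pachytene and Dhx33 into round spermatids.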

How the data were processed

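RNA of 8 Hoechst-sorted testis fractions was measured on 20 Affymetrix MOE430 version 2 arrays after oligo-dT priming. The authors deposited linear signal intensities from GC-RMA for 45037 probe sets, and the sources used here do not state its version. Arrays had a median signal of 11.1 to 12.7, and their number limits the precision. Fractions came from the sample labels. Intensities were taken to log2, and the fractions were groups in a single limma fit of the 20 arrays (version 3.58.1, R 4.3.3, 12 residual degrees of freedom). Tests were two-sided, with a Benjamini-Hochberg threshold of 0.05 across 22396 probe sets, those that reached log2 5 in 2 arrays or more. On simulated data 56% of added changes of 2 were recovered among 22396 probe sets. Ratios of 2 genes were tested with scipy 1.17.1. Symbols came from GEO's platform annotation, which gives 1 symbol for 34945 probe sets, several for 932 and none for 9160. Array projects are supplementary columns that equal an array at all 2157 probe sets compared. Values of every fraction are given for Ddx25, Ddx19b and Ddx3x and, per comparison, for the 4 largest rises and falls called without overlap of arrays; others are given by counts. Members, roles and lists were chosen with earlier results of these data known. Alternatives were other scalings, filters, floors, blocks, probe sets and fewer arrays. Promoters are RefSeq's.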

Additional observations from a re-analysis of the deposited data

Results flagged for a closer look

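In the 2 fractions with 4 arrays, 94 groups of values were looked at (47 helicases in each) and 3 had an array far from the other 3, by Dixon's 95% critical value. Chance gives about 1 such group in 20. Ddx3x was at 7.69 in round spermatid replicate 1 and at 5.70 to 5.95 in the other 3. Dhx32 was at 10.5 in spermatogonia replicate 4 and at 9.64 to 9.67 in the others. Dhx34 was at 5.76 in spermatogonia replicate 4 and at 6.39 to 6.49 in the others. The calls of these 3 genes between round spermatids and spermatogonia were kept in all 16 alternatives.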

How the results depend on the processing

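Of 183 alternative values of 13 results, 145 were labelled the same as the main value. For the changes of Ddx25 and its ratio that means the same direction and side of the threshold. For a count it means a number near the main one, so that 16 against 11 into mid-pachytene, with the replicate block, is labelled the same. The counts of round spermatids against spermatogonia (36 called, 30 to 37 otherwise, 34 to 35 with 1 array left out) had this label in every alternative. So did the rise of Ddx25 there (3.21, 3.17 to 3.29, and 3.0 to 3.45 with 1 array left out). Deviations of arrays of equal replicate number correlated at -0.172 to 0.699 (median 0.335, 37 pairs). For 96 pairs of different number the median was -0.115. Arrays of one project correlated at 0.123 to 0.699 (median 0.439, 21 pairs), and 112 pairs of different projects had a median of -0.0856. Arrays of equal number or project thus tended to deviate together, and the main fit had no block. With the replicate block the count from pre-leptotene to leptotene-zygotene was 1, Ddx25 had 0.07 from spermatogonia to pre-leptotene and -0.23 from diplotene to round spermatids, and its ratio to Ddx19b differed by 0.91 (exact p = 0.125, the smallest for 4 pairs). With the project block these were 2 for the count, 11 for mid-pachytene to diplotene and -0.16 for Ddx25 in the last step. The floor at log2 5 gave 1 from pre-leptotene to leptotene-zygotene. Fits of only the 2 fractions, with fewer arrays, gave 5 and 0 for the steps into mid-pachytene and diplotene, and 1.66 for Ddx25 into mid-pachytene (adjusted p = 0.078). Another quantile normalization gave 0.56 for the ratio of Ddx25 to Ddx19b, and the other Ddx19b probe set reversed it (-0.20). For each other value named the cause was not tested.

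With 1 array left out the counts were 0 to 1 into leptotene-zygotene, 0 to 7 into mid-pachytene, 0 to 4 into diplotene and 6 to 14 into round spermatids. Ddx25 had -0.30 to 0.16 into pre-leptotene, reversed without spermatogonia replicate 4 (0.16), 0.43 to 1.13 into leptotene-zygotene, 1.19 to 2.13 into mid-pachytene, 0.20 to 1.13 into diplotene, and -0.24 to 0.47 into round spermatids, reversed without diplotene replicate 1 (-0.24) and round spermatid replicate 3 (-0.05). The ratio of Ddx25 to Ddx19b had 0.44 to 1.10, each at exact p = 0.0571, the smallest for 3 arrays against 4. Its comparison within array projects had too few arrays for a test. The 2 planned ratios with Ddx19a and Ddx3y were not run. Levels near 5 limit what could be seen of Ddx23, Ddx55, Ddx58, Ddx60, Dhx37 and Dhx57.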
